A study of Mus musculus with 9 samples.

Results

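The 9 genes described here encode neuropeptide precursors of brain neurons: the opioid precursors Penk and Pdyn, the interneuron peptides Npy, Sst, Vip and Cck, and the precursors Tac1, Cartpt and Crh. They were chosen by name with earlier results of these data known, and they are 9 of the 46517 genes in the count tables. The study profiled primary glioblastoma tissue from 3 mouse models on a mixed strain background by bulk RNA sequencing, with 3 libraries for each model. Each model expresses the Cre recombinase under a different promoter. The Synapsin-cre model uses the promoter of a synaptic vesicle gene of neurons. The NG2-creERTM model uses that of NG2 (Cspg4), which is active in oligodendrocyte precursors and pericytes. The Nestin-creERT2 model uses that of Nestin, a gene of neural stem and progenitor cells. CreERTM and creERT2 are forms of Cre that act after tamoxifen. The labels name no other allele, no dose, no age and no sex. Whether the 3 libraries of a model are separate mice is not given either. The p-values below measure the spread between libraries, which may be partly technical.

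Neuropeptides are cut from larger precursor proteins by prohormone convertases inside dense-core granules and are released to act on G protein-coupled receptors. In the forebrain each precursor marks certain neurons: enkephalin and dynorphin neurons of the striatum carry Penk and Pdyn, classes of cortical inhibitory neurons carry Sst, Npy or Vip, and Cck is found in both inhibitory and excitatory neurons. In bulk tissue fewer cells of such a type and less RNA per cell cannot be told apart.

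Several of these precursors are textbook targets of the cyclic AMP response factor CREB, which binds the palindrome TGACGTCA or its shorter core TGACG. Of the 9 genes 7 had RefSeq promoters of build GRCm38.p6, 8 promoters in all, each running from 250 bases before to 50 after the start. Both strands were searched, and every palindrome also holds the core on each strand. The palindrome lay 112 bases before the start in Cartpt and 48 bases before it in Sst, and in none of the promoters of the other 5 genes. It was in 1.79% of the 32851 promoters of that length. The core was in the promoters of 5 genes (Cartpt, Sst, Tac1, Cck and Vip) and in neither Pdyn nor Npy, against 20.8% of all promoters. Penk and Crh were not searched. The 5 stretches nearest the start are shown 5′ to 3′ because they carry these letters, with the cores, on either strand, in capitals. Those of Sst, Cartpt and Tac1 are short because GENCODE vM21 places them inside an exon of the gene.
Sst, chr16:23890874-23890900, minus strand: tccttggcTGACGTCAgagagagagtt
Cartpt, chr13:99900777-99900803, minus strand: gcgggcatTGACGTCAaacggcagcgg
Tac1, chr6:7555007-7555033, plus strand: ctctacaggctCGTCAcgcctgagata
Cck, chr9:121495697-121495781, minus strand: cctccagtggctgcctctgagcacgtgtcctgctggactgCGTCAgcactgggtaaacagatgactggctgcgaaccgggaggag
Vip, chr10:5639099-5639183, plus strand: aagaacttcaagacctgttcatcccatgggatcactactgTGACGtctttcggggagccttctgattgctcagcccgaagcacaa
A match describes the letters in this window and no binding was measured.

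Libraries held 23557398 to 41099967 counts in genes. Levels are CPM, a gene's counts relative to the total of its library, scaled between libraries with TMM factors, and a count of 3 was worth 0.0714 to 0.133 CPM. That count is also the upper limit that 0 counts allow, for counting error alone. Glioma marker genes (Nes, Olig2, Sox2, Pdgfra, Gfap and Egfr) were detected in all libraries. Their summed level was 1423 to 4314 CPM in Synapsin-cre, 2156 to 3784 CPM in NG2-creERTM and 3931 to 6701 CPM in Nestin-creERT2 tumours. The highest Synapsin-cre sum was that of replicate 1, where Gfap alone had 4017 CPM. In that library Nes (55.2 CPM), Sox2 (49.5 CPM), Olig2 (38.9 CPM) and Pdgfra (128 CPM) were each the lowest of the 9 libraries. Egfr, at 25.9 CPM, was not the lowest there. Synapsin-cre replicate 1 stood apart. Its Spearman correlations with the other libraries were 0.778 to 0.884, and its summed proliferation markers were 94.0 CPM. Its pan-neuronal markers summed to 8169 CPM, above every other library. In the Synapsin-cre libraries Xist was at 1.02 to 1.28 CPM, against 777 to 1808 CPM in the Nestin-creERT2 libraries. Model and sex therefore cannot be told apart between them. In NG2-creERTM tumours Xist was at 1320 CPM in replicate 2 and at 0.988 and 1.26 CPM in replicates 1 and 3. The Y-linked gene Ddx3y was at 5.54, 0.0523 and 71.6 CPM in NG2-creERTM replicates 1, 2 and 3, so the sex of replicate 1 is unclear. Model and sex are thus partly mixed in the comparisons with NG2-creERTM tumours too.

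The summed RNA of these 9 precursors was lower in NG2-creERTM than in Nestin-creERT2 tumours. In Synapsin-cre tumours it was either very high or low depending on the library. Other neuropeptide precursors, given below, did not have this order as a group. The 9 genes summed to 411, 50.001 and 8.65 CPM in the Synapsin-cre libraries, to 15.5, 8.16 and 25.0 CPM in the NG2-creERTM libraries, and to 147, 245 and 188 CPM in the Nestin-creERT2 libraries. All NG2-creERTM sums lay below all Nestin-creERT2 sums, and of the Synapsin-cre sums replicate 1 lay above both other models, replicate 2 between them and replicate 3 within the NG2-creERTM range. All 9 genes passed the filter on low counts. No gene of any kind passed the test in the fit of all 9 libraries: the quasi-likelihood test of edgeR, adjusted by Benjamini-Hochberg over all genes with a threshold of 0.05, called 0 of 17947 genes (0%) in each comparison. At an unadjusted p under 0.05 there were 2021 genes for NG2-creERTM minus Nestin-creERT2, 1937 for Synapsin-cre minus Nestin-creERT2 and 2298 for Synapsin-cre minus NG2-creERTM. Of the 9 neuropeptide genes 4, 3 and 2 were among them. The limma voom test also called 0 genes in each, and DESeq2 called 623, 497 and 446 genes. DESeq2 gave Penk no adjusted p in any of the 3 comparisons, and it called none of the other 8 neuropeptide genes.

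**Figure D1:**
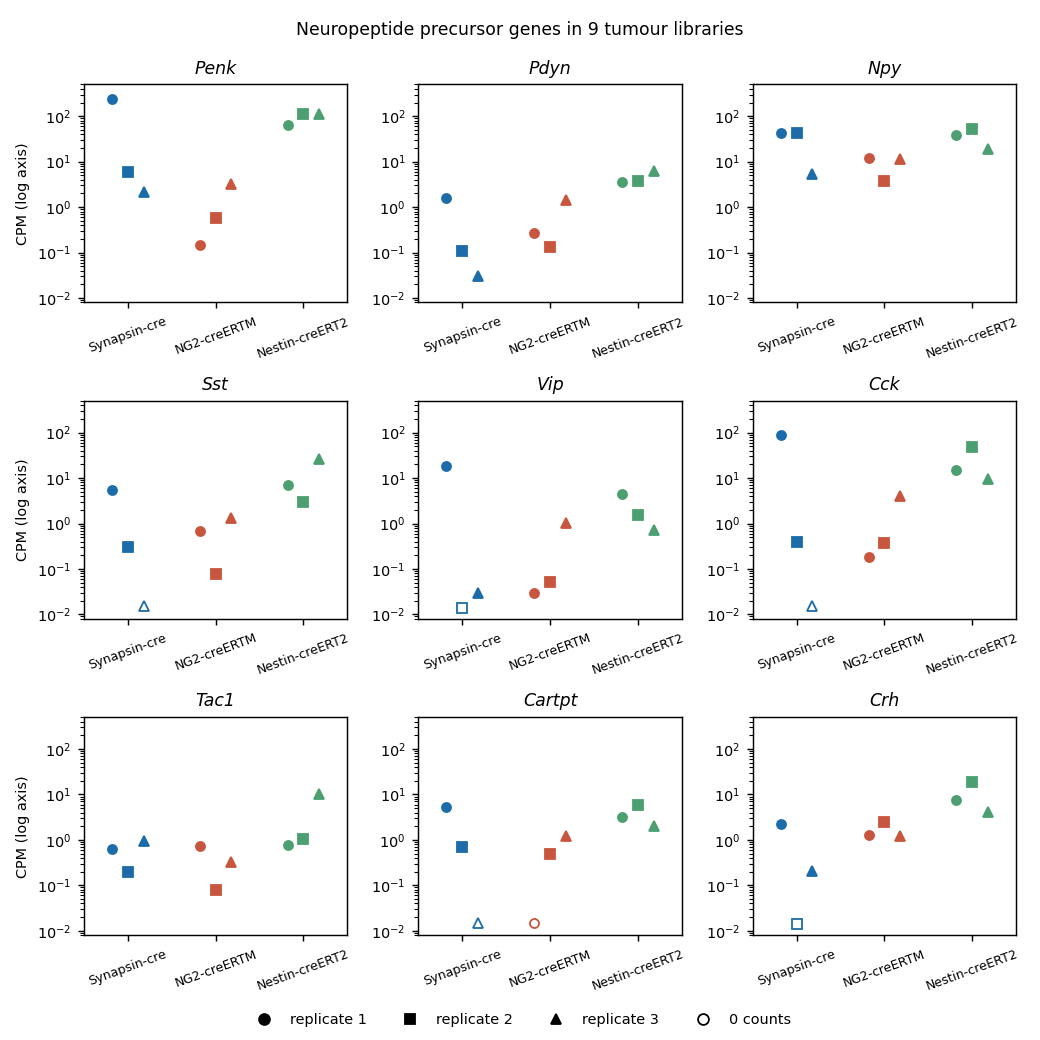
CPM of each neuropeptide gene in each library on a log axis, by model; shapes mark the replicate and open symbols a library with 0 counts. Synapsin-cre replicate 1 sits above the Nestin-creERT2 libraries for Penk, Vip and Cck, while replicates 2 and 3 lie below all Nestin-creERT2 libraries for 7 of the 9 genes.

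Penk (ENSMUSG00000045573, chr4:4133531-4138819 on GRCm38, minus strand) encodes proenkephalin, the source of the enkephalins that act on delta and mu opioid receptors. It had 244, 5.90 and 2.10 CPM in Synapsin-cre tumours, 0.150, 0.575 and 3.30 CPM in NG2-creERTM, and 65.3, 111 and 109.7 CPM in Nestin-creERT2 tumours. The 3 NG2-creERTM levels were all lower than the 3 Nestin-creERT2 levels. Synapsin-cre replicate 1 was the highest library, replicate 2 lay between the other models and replicate 3 within the NG2-creERTM range. The highest level was 10.21 log2 units above the lowest. The log2 fold change was -6.14 ± 1.85 (SE, n = 3 each) for NG2-creERTM minus Nestin-creERT2, with an edgeR adjusted p of 0.323. It was -0.18 ± 1.47 for Synapsin-cre minus Nestin-creERT2 (edgeR adjusted p 0.982) and 5.96 ± 1.84 for Synapsin-cre minus NG2-creERTM (edgeR adjusted p 0.357). This last value rested on Synapsin-cre replicate 1, without which it was 1.57.

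When the NG2-creERTM and Nestin-creERT2 libraries were fitted alone, Penk fell in NG2-creERTM tumours, by 6.13 ± 1.02 on the log2 scale (SE, n = 3 each, edgeR adjusted p 0.0445). That fit called 183 of 17108 genes lower (1.07%), and Penk was the 1 neuropeptide gene among them. In the fit of 8 libraries without Synapsin-cre replicate 1 the value was -6.14 ± 1.04 with an edgeR adjusted p of 0.0464, among 92 of 18481 genes called lower (0.498%).

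Pdyn (ENSMUSG00000027400, chr2:129686565-129699844, minus strand) encodes prodynorphin, the source of the kappa receptor ligands. It had 1.55, 0.110 and 0.0300 CPM in Synapsin-cre tumours, 0.270, 0.131 and 1.46 CPM in NG2-creERTM, and 3.58, 3.85 and 6.33 CPM in Nestin-creERT2 tumours. All 6 libraries of the other models lay below the lowest Nestin-creERT2 library, Synapsin-cre replicate 1 included. Crh had the same order, and 2.42% of all genes tested did. The log2 fold changes were -2.87 ± 1.33 (SE, n = 3 each) for NG2-creERTM minus Nestin-creERT2 and -3.05 ± 1.35 for Synapsin-cre minus Nestin-creERT2, with edgeR adjusted p of 0.459 and 0.462. Pdyn was at -0.18 ± 1.27 for Synapsin-cre minus NG2-creERTM.

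Npy (ENSMUSG00000029819, chr6:49822710-49829507, plus strand) encodes neuropeptide Y, a peptide of inhibitory neurons that acts through Y receptors. It had 43.4, 42.4 and 5.32 CPM in Synapsin-cre tumours, 12.2, 3.84 and 11.2 CPM in NG2-creERTM, and 39.5, 52.1 and 18.95 CPM in Nestin-creERT2 tumours. Here 2 Synapsin-cre libraries, not 1, lay at the Nestin-creERT2 level, and the gene's spread of 3.74 log2 units over the 9 libraries was the narrowest of the 9 genes. The log2 fold change was -2.02 ± 0.78 (SE, n = 3 each, edgeR adjusted p 0.402) for NG2-creERTM minus Nestin-creERT2, with no overlap between the models. It was -0.28 ± 0.75 for Synapsin-cre minus Nestin-creERT2 and 1.74 ± 0.77 for Synapsin-cre minus NG2-creERTM, where the models overlapped.

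Sst (ENSMUSG00000004366, chr16:23889573-23890958, minus strand) encodes somatostatin, an inhibitory peptide of cortical interneurons. It had 5.48, 0.303 and 0 CPM in Synapsin-cre tumours, 0.689, 0.0784 and 1.34 CPM in NG2-creERTM, and 6.96, 3.05 and 26.4 CPM in Nestin-creERT2 tumours. Nestin-creERT2 replicate 3 was highest, NG2-creERTM and Nestin-creERT2 libraries did not overlap, and Synapsin-cre replicate 1 lay within the Nestin-creERT2 range. The log2 fold changes were -4.10 ± 1.80 (SE, n = 3 each) for NG2-creERTM minus Nestin-creERT2 and -2.66 ± 1.69 for Synapsin-cre minus Nestin-creERT2, with edgeR adjusted p of 0.437 and 0.606. For Synapsin-cre minus NG2-creERTM Sst was at 1.44 ± 1.64, and at -2.17 without Synapsin-cre replicate 1.

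Vip (ENSMUSG00000019772, chr10:5639218-5647617, plus strand) encodes vasoactive intestinal peptide, made by interneurons that inhibit other interneurons. It had 18.3, 0 and 0.0300 CPM in Synapsin-cre tumours, 0.0300, 0.0523 and 1.02 CPM in NG2-creERTM, and 4.43, 1.55 and 0.738 CPM in Nestin-creERT2 tumours. This was the 1 gene of the 9 whose NG2-creERTM and Nestin-creERT2 libraries overlapped, through NG2-creERTM replicate 3. The low end rests on 0 to 2 counts in 4 libraries. The log2 fold change was -2.59 ± 2.18 (SE, n = 3 each) for NG2-creERTM minus Nestin-creERT2. It was 1.44 ± 2.07 for Synapsin-cre minus Nestin-creERT2 and 4.03 ± 2.31 for Synapsin-cre minus NG2-creERTM, and without Synapsin-cre replicate 1 these last 2 values were -6.98 and -4.39.

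Cck (ENSMUSG00000032532, chr9:121489824-121495694, minus strand) encodes cholecystokinin, a peptide of basket interneurons and of excitatory neurons. It had 89.7, 0.386 and 0 CPM in Synapsin-cre tumours, 0.180, 0.366 and 3.97 CPM in NG2-creERTM, and 15.3, 48.1 and 9.47 CPM in Nestin-creERT2 tumours. The Synapsin-cre libraries held both the highest and the lowest level of the series, and NG2-creERTM and Nestin-creERT2 libraries did not overlap. Its spread of 10.62 log2 units was the widest of the 9 genes. The log2 fold change was -4.004 ± 2.26 (SE, n = 3 each, edgeR adjusted p 0.546) for NG2-creERTM minus Nestin-creERT2 and 0.31 ± 1.996 for Synapsin-cre minus Nestin-creERT2. The second of these was -6.93 without Synapsin-cre replicate 1. For Synapsin-cre minus NG2-creERTM Cck was at 4.31 ± 2.29, and at -2.93 without that library.

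Tac1 (ENSMUSG00000061762, chr6:7554879-7565834, plus strand) encodes the precursor of substance P and neurokinin A, the ligands of tachykinin receptors. It had 0.619, 0.193 and 0.962 CPM in Synapsin-cre tumours, 0.719, 0.0784 and 0.322 CPM in NG2-creERTM, and 0.763, 1.02 and 10.2 CPM in Nestin-creERT2 tumours. Nestin-creERT2 replicate 3 stood alone, and the other 8 libraries lay at about 1 CPM or lower, Synapsin-cre replicate 1 among them. The log2 fold changes were -3.42 ± 1.24 (SE, n = 3 each) for NG2-creERTM minus Nestin-creERT2 and -2.75 ± 1.20 for Synapsin-cre minus Nestin-creERT2, with edgeR adjusted p of 0.382 and 0.459. Without Nestin-creERT2 replicate 3 they were -1.26 and -0.60. The value for Synapsin-cre minus NG2-creERTM was 0.66 ± 1.16.

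Cartpt (ENSMUSG00000021647, chr13:99898489-99901091, minus strand) encodes the precursor of the CART peptides, which in the hypothalamus lower food intake. It had 5.26, 0.689 and 0 CPM in Synapsin-cre tumours, 0, 0.497 and 1.19 CPM in NG2-creERTM, and 3.11, 6.01 and 2.05 CPM in Nestin-creERT2 tumours. NG2-creERTM and Nestin-creERT2 libraries did not overlap, and Synapsin-cre replicate 1 lay within the Nestin-creERT2 range. The log2 fold changes were -2.71 ± 1.73 (SE, n = 3 each) for NG2-creERTM minus Nestin-creERT2, -0.92 ± 1.63 for Synapsin-cre minus Nestin-creERT2 and 1.80 ± 1.68 for Synapsin-cre minus NG2-creERTM. Without Synapsin-cre replicate 1 the last 2 values were -3.41 and -0.69.

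Crh (ENSMUSG00000049796, chr3:19693401-19695396, minus strand) encodes corticotropin-releasing hormone, the hypothalamic trigger of the stress axis, which cortical interneurons also make. It had 2.21, 0 and 0.210 CPM in Synapsin-cre tumours, 1.29, 2.54 and 1.21 CPM in NG2-creERTM, and 7.60, 18.4 and 4.07 CPM in Nestin-creERT2 tumours. All 6 libraries of the other models lay below every Nestin-creERT2 library, and the NG2-creERTM libraries lay close together. The log2 fold changes were -2.57 ± 1.35 (SE, n = 3 each) for NG2-creERTM minus Nestin-creERT2 and -3.65 ± 1.42 for Synapsin-cre minus Nestin-creERT2, with edgeR adjusted p of 0.515 and 0.424. The value for Synapsin-cre minus NG2-creERTM was -1.08 ± 1.31, and -3.98 without Synapsin-cre replicate 1.

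**Figure D2:**
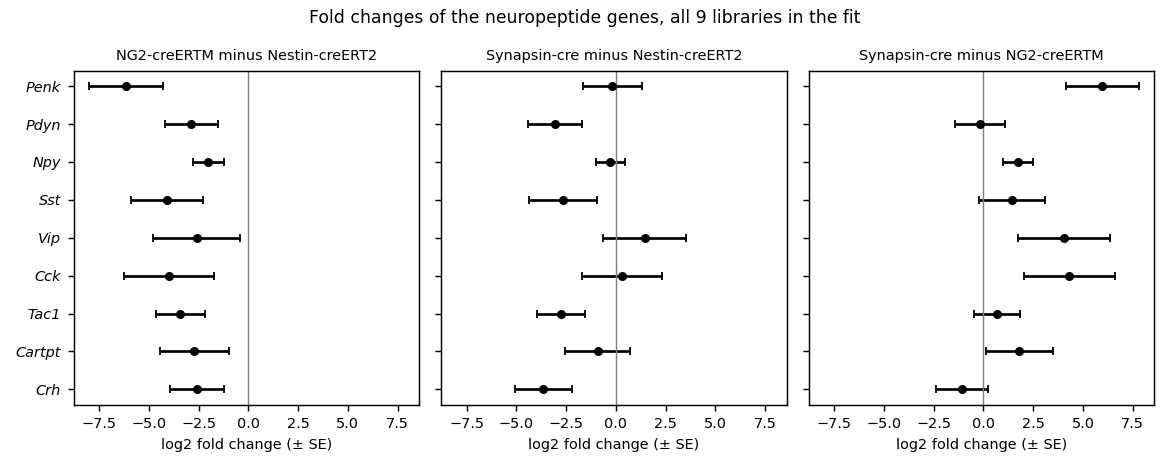
Log2 fold change of each neuropeptide gene in the 3 comparisons from the edgeR fit of all 9 libraries; bars are 1 standard error. All 9 points lie below 0 for NG2-creERTM minus Nestin-creERT2, 7 of 9 for Synapsin-cre minus Nestin-creERT2, and 2 of 9 for Synapsin-cre minus NG2-creERTM.

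For NG2-creERTM minus Nestin-creERT2 all 9 genes had negative log2 fold changes with a median of -2.87, where the median over all genes tested was 0.02. The 2 models did not overlap for 8 of the 9, with NG2-creERTM lower, and 14.2% of all genes tested were lower without overlap. For Tac1, counted among the 8, the gap was within counting error: 24 counts in NG2-creERTM replicate 1 and 26 in Nestin-creERT2 replicate 1. When each library was left out in turn all 9 stayed negative, and the median ran from -4.50, without NG2-creERTM replicate 3, to -2.52, without NG2-creERTM replicate 1. For Synapsin-cre minus Nestin-creERT2 the median was -0.92, against 0.13 over all genes, and Vip and Cck were positive. Pdyn and Crh, 2 of 9, were lower in Synapsin-cre without overlap, and 6.29% of all genes were. For Synapsin-cre minus NG2-creERTM the median was 1.74, against 0.08 over all genes, and the models overlapped for all 9 genes. Without Synapsin-cre replicate 1 the median of that comparison was -2.17, with 6 of the 9 genes negative. The first 2 comparisons share the Nestin-creERT2 libraries, and the last shares libraries with each of them.

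Synapsin-cre replicate 1 set the values of that model for all of the 9 genes but Npy and Tac1. For Synapsin-cre minus Nestin-creERT2, leaving it out moved Npy from -0.28 to -0.63 and Tac1 from -2.75 to -2.79. Replicates 2 and 3 lay below every Nestin-creERT2 library for 7 of the 9 genes, all but Npy and Tac1, and 21% of all genes tested had that order. In the fit of the other 8 libraries all 9 genes were negative for Synapsin-cre minus Nestin-creERT2, with a median of -5.95, and 0 of the 9 passed among 273 genes called by edgeR. The edgeR adjusted p in that fit were 0.0721 for Penk, 0.0585 for Pdyn and 0.0511 for Crh. When Synapsin-cre replicates 2 and 3 were fitted with the Nestin-creERT2 libraries alone, 305 of 17797 genes were called lower (1.71%), and Penk and Pdyn were among them. For these 2 libraries the Penk log2 fold change was -4.57 ± 0.60 (SE, n = 2 and 3, edgeR adjusted p 0.0235). That of Pdyn was -5.94 ± 0.87 (SE, n = 2 and 3, edgeR adjusted p 0.0284). Replicate 1, left out here, had the highest level of its model for both genes. With it, in the fit of all 9 libraries, the values were -0.18 and -3.05 (edgeR adjusted p 0.982 and 0.462). Leaving out the highest library lowers the values, so both calls describe replicates 2 and 3 and not the model.

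Per kilobase of exon, the order of the genes differed between the models. Penk had 150, 3.61 and 1.29 CPM per kb in Synapsin-cre tumours, 0.0917, 0.352 and 2.02 CPM per kb in NG2-creERTM, and 39.98, 67.7 and 67.1 CPM per kb in Nestin-creERT2 tumours. Npy had 76.7, 74.9 and 9.40 CPM per kb in Synapsin-cre tumours, 21.6, 6.79 and 19.8 CPM per kb in NG2-creERTM, and 69.8, 92.0 and 33.5 CPM per kb in Nestin-creERT2 tumours. In NG2-creERTM tumours every Npy value lay above every Penk value, while in Nestin-creERT2 tumours their ranges overlapped. There Npy and Penk had the highest means per length, 65.1 and 58.3 CPM per kb. Cck followed with 7.26 to 36.8 and Sst with 4.22 to 36.6 CPM per kb in Nestin-creERT2 tumours. Both lay below every Penk value and overlapped the Npy range, and in Nestin-creERT2 replicate 3 Sst was above Npy. Crh had 3.08 to 13.9 CPM per kb in Nestin-creERT2 tumours. Cartpt had 1.60 to 4.71, Pdyn 1.24 to 2.19, Tac1 0.225 to 3.005 and Vip 0.217 to 1.30 CPM per kb in Nestin-creERT2 tumours. From Cck downward the ranges of neighbours in this order overlapped. In Synapsin-cre replicate 1 Cck had 68.7 CPM per kb, between Npy and Sst, whose 7.60 came next.

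The make-up of the summed precursor reads also differed between the models. Penk gave 59.5, 11.8 and 24.3% of the sum in Synapsin-cre, 0.963, 7.05 and 13.2% in NG2-creERTM, and 44.6, 45.2 and 58.4% in Nestin-creERT2 tumours. Npy gave 10.6, 84.8 and 61.5% of the sum in Synapsin-cre, 78.6, 47.1 and 44.7% in NG2-creERTM, and 27.0, 21.3 and 10.1% in Nestin-creERT2 tumours. Penk was thus the largest share in the 3 Nestin-creERT2 libraries and in Synapsin-cre replicate 1, and Npy was the largest in the other 5 libraries. Crh gave 31.1% of the sum in NG2-creERTM replicate 2, and Cck gave 21.8% in Synapsin-cre replicate 1. Shares are not scaled by gene length.

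**Figure D3:**
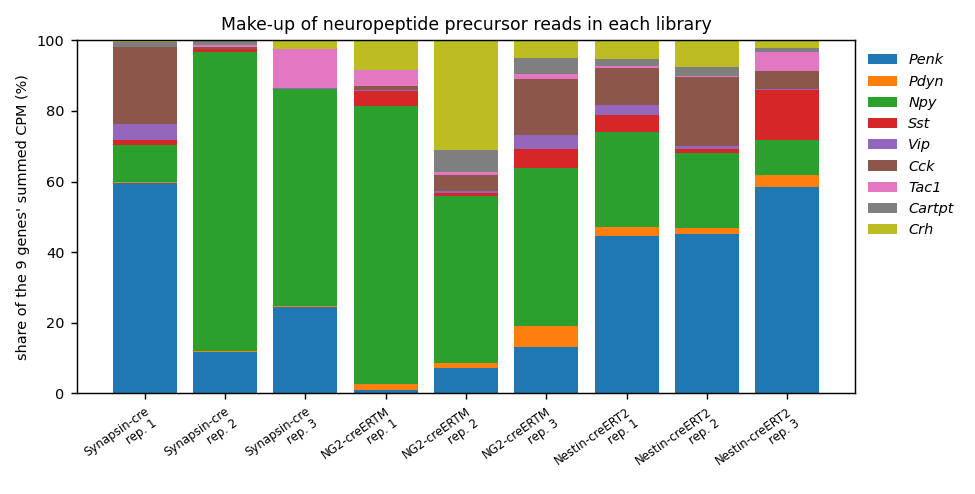
Share of each neuropeptide gene in the summed CPM of the 9 genes, in percent, for each library. Penk fills 44.6 to 58.4% of the bar in the Nestin-creERT2 libraries and 0.963 to 13.2% in the NG2-creERTM libraries, where Npy fills 44.7 to 78.6%.

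Pan-neuronal genes had much the same order as the precursors. The summed level of 18 such genes was 8169, 1692 and 1022 CPM in Synapsin-cre tumours, 898, 1267 and 1282 CPM in NG2-creERTM, and 3199, 2374 and 2894 CPM in Nestin-creERT2 tumours, and none was at 0 in any library. All 18 were negative for NG2-creERTM minus Nestin-creERT2, with a median log2 fold change of -2.41, and 16 of them were lower in NG2-creERTM without overlap, against 14.2% of all genes tested. In the fit of those 2 models alone edgeR called 6 of the 18 lower. It called 1 of the 9 precursors and 1.07% of all genes tested lower there. The 2 most abundant, Map2 and Uchl1, are detected outside neurons too. Map2 had 285 to 459 CPM in NG2-creERTM and 595 to 770.0 CPM in Nestin-creERT2 tumours, and Uchl1 had 233 to 342 CPM in NG2-creERTM and 198 to 433 CPM in Nestin-creERT2 tumours. Relative to the list, the 9 precursors summed to 5.03, 2.96 and 0.847% of the pan-neuronal sum in Synapsin-cre, 1.73, 0.644 and 1.95% in NG2-creERTM, and 4.58, 10.3 and 6.49% in Nestin-creERT2 tumours. The 3 NG2-creERTM ratios thus lay below the 3 Nestin-creERT2 ratios. Map2 and Uchl1 weighed more in the NG2-creERTM sums, however. They had 399 and 270 CPM of the 898 in NG2-creERTM replicate 1, and 652 and 433 CPM of the 3199 in Nestin-creERT2 replicate 1. The ratios therefore depend on these 2 genes, and ratios without them were not computed. The part of neuron content in the precursor levels was not tested.

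Gene by gene, levels were also set against the mean log2 CPM of the pan-neuronal genes, with 2 counts added before the log, which limits the values of genes near 0. On this scale Penk was at -4.39 ± 1.30 in NG2-creERTM and at -0.08 ± 0.64 in Nestin-creERT2 tumours (SD, n = 3 each), with no overlap. Npy was at -0.97 ± 1.07 in NG2-creERTM and at -1.53 ± 0.87 in Nestin-creERT2 tumours (SD, n = 3 each), with overlap. Against this mean Penk was lower in NG2-creERTM than in Nestin-creERT2 tumours, while the Npy values differed by less than their spread. The mean includes Map2 and Uchl1, and a mean without them was not computed. Crh was at -3.28 ± 1.05 in NG2-creERTM and at -3.55 ± 1.26 in Nestin-creERT2 tumours (SD, n = 3 each). Pdyn was at -7.44 ± 0.31 in Synapsin-cre, at -5.14 ± 1.01 in NG2-creERTM and at -4.45 ± 0.50 in Nestin-creERT2 tumours (SD, n = 3 each). Pdyn and Crh lay lower in every Synapsin-cre library than in every library of the other models, Synapsin-cre replicate 1 included. The share of all genes with that order on this scale was not computed. In Synapsin-cre replicates 2 and 3 the values rest on 4 and 1 counts of Pdyn and on 0 and 7 counts of Crh. Replicate 1 had the highest mean of the pan-neuronal genes, 7.76.

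**Figure D4:**
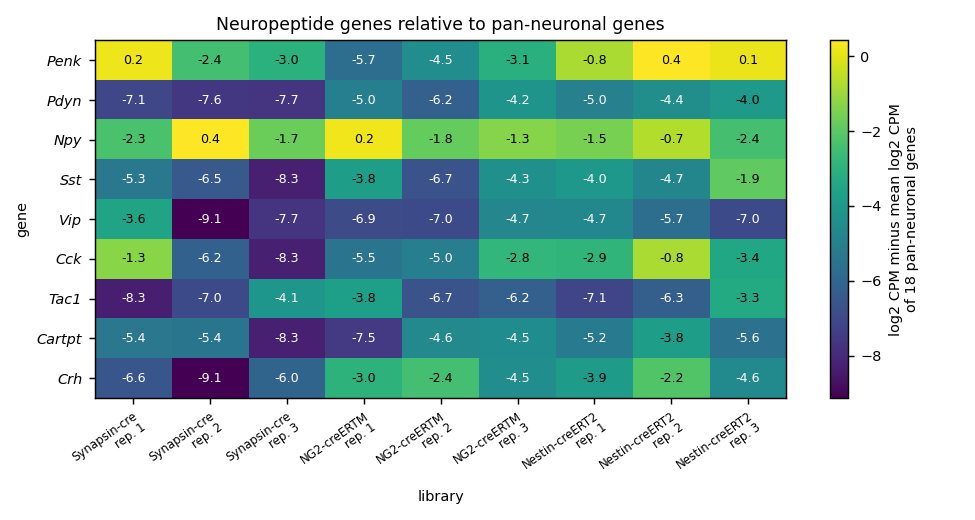
Log2 CPM of each neuropeptide gene minus the mean log2 CPM of 18 pan-neuronal genes, for each library; yellow is high and dark blue low. Penk runs from -0.80 to 0.42 in the Nestin-creERT2 libraries and from -5.66 to -3.06 in the NG2-creERTM libraries, while Npy overlaps between them.

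Markers of the neuron classes that carry these peptides were read beside them. The 16 inhibitory neuron markers summed to 118 to 5525 CPM in Synapsin-cre, 147 to 222 CPM in NG2-creERTM and 369 to 669 CPM in Nestin-creERT2 tumours, with at most 1 at 0 in a library. Gad1, which makes GABA, had 2275, 18.4 and 3.91 CPM in Synapsin-cre tumours, 7.43, 11.4 and 16.4 CPM in NG2-creERTM, and 116, 54.5 and 87.5 CPM in Nestin-creERT2 tumours. As for Penk, NG2-creERTM and Nestin-creERT2 levels of Gad1 did not overlap, and Synapsin-cre replicate 1 was far above the rest. Of the 16 markers 14 were negative for NG2-creERTM minus Nestin-creERT2 (median log2 fold change -2.07), and 8 were lower without overlap, against 14.2% of all genes tested.

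Of the 12 markers of striatal projection neurons, the cells known for Penk and Pdyn, 11 were tested and 10 were negative for NG2-creERTM minus Nestin-creERT2, with a median of -1.55. They summed to 91.9 to 291 CPM in Synapsin-cre, 90.1 to 157 CPM in NG2-creERTM and 99.96 to 322 CPM in Nestin-creERT2 tumours, with up to 3 at 0 in a library. Drd2, the dopamine receptor of enkephalin neurons, had 2.12, 0.165 and 0.601 CPM in Synapsin-cre tumours, 0.0899, 0.0261 and 0.0496 CPM in NG2-creERTM, and 0.793, 1.38 and 5.95 CPM in Nestin-creERT2 tumours. In the fit of NG2-creERTM and Nestin-creERT2 libraries alone Drd2 fell by 5.55 ± 1.03 on the log2 scale in NG2-creERTM tumours (SE, n = 3 each, edgeR adjusted p 0.0487). Its NG2-creERTM levels rest on 3 counts or fewer in each library, so the size of that fall is uncertain. The 2 highest genes of the list, Pde10a and Ppp1r1b, overlapped between the models: Pde10a had 35.2 to 60.0 CPM in NG2-creERTM and 58.3 to 98.8 CPM in Nestin-creERT2 tumours, and Ppp1r1b had 13.1 to 55.3 CPM in NG2-creERTM and 3.5997 to 88.6 CPM in Nestin-creERT2 tumours.

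Cortical excitatory neuron markers summed to 8.27 to 1343 CPM in Synapsin-cre, 26.2 to 104 CPM in NG2-creERTM and 186 to 395 CPM in Nestin-creERT2 tumours, with at most 1 of 9 at 0 in a library. For NG2-creERTM minus Nestin-creERT2 8 of the 9 were negative, with a median of -2.64. Camk2a, a kinase of excitatory synapses, had 848, 2.81 and 2.19 CPM in Synapsin-cre tumours, 10.8, 2.61 and 31.8 CPM in NG2-creERTM, and 149, 22.9 and 152.6 CPM in Nestin-creERT2 tumours. Slc17a7, the glutamate transporter of their vesicles, was at 398 CPM in Synapsin-cre replicate 1 and at 0.910 and 0.962 CPM in replicates 2 and 3. Hypothalamic neuron markers were near 0: 9 genes summed to 1.55 to 2.32 CPM in Synapsin-cre, 1.23 to 3.32 CPM in NG2-creERTM and 0.941 to 2.81 CPM in Nestin-creERT2 tumours, with 1 to 5 of them at 0. Pomc was at 0.571 to 1.98 CPM and Pmch at 0 to 1.76 CPM over the 9 libraries. Avp and Oxt, the hormones of magnocellular neurons, were each at 0.221 CPM or lower in every library.

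Most receptors of these peptides were, like their ligands, lower in NG2-creERTM than in Nestin-creERT2 tumours. Of 21 receptor genes 18 were tested. For NG2-creERTM minus Nestin-creERT2 17 were negative with a median log2 fold change of -2.16, and 12 were lower without overlap, a direction in which 14.2% of all genes did not overlap. For Synapsin-cre minus Nestin-creERT2 7 of 18 were negative with a median of 0.42, and in the fit without Synapsin-cre replicate 1 18 of 19 were negative with a median of -2.29. None of the 18 passed in the fit of all 9 libraries.

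Adcyap1r1, the PACAP receptor and relative of the VIP receptors, was the most abundant receptor gene. It had 656, 7.53 and 10.6 CPM in Synapsin-cre tumours, 35.9, 43.0 and 52.3 CPM in NG2-creERTM, and 191, 296 and 517 CPM in Nestin-creERT2 tumours. All libraries but Synapsin-cre replicate 1 lay below the Nestin-creERT2 libraries. In the fit of NG2-creERTM and Nestin-creERT2 alone it fell by 2.93 ± 0.40 on the log2 scale in NG2-creERTM tumours (SE, n = 3 each, edgeR adjusted p 0.0388). Npy5r, a Y receptor, fell by 5.45 ± 0.91 there (SE, n = 3 each, edgeR adjusted p 0.0445), and Crhr2, a receptor of CRH and the urocortins, by 4.99 ± 0.80 (SE, n = 3 each, edgeR adjusted p 0.0434). Both are rare: Npy5r was at 0 to 0.0261 CPM in NG2-creERTM and 0.470 to 1.55 CPM in Nestin-creERT2 tumours, and Crhr2 at 0.0300 to 0.131 CPM in NG2-creERTM and 1.05 to 3.52 CPM in Nestin-creERT2 tumours. Sstr1, a somatostatin receptor, was the 1 receptor of the list with a positive value: it had 3.23, 2.40 and 9.10 CPM in Synapsin-cre tumours, 88.4, 8.89 and 40.7 CPM in NG2-creERTM, and 9.92, 8.61 and 14.7 CPM in Nestin-creERT2 tumours. Its log2 fold change was 2.05 ± 0.79 (SE, n = 3 each, edgeR adjusted p 0.405), and NG2-creERTM replicate 2 lay within the Nestin-creERT2 range.

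The receptors of the Penk and Pdyn peptides were low in most libraries. Oprd1, the delta receptor, had 47.6, 0.221 and 0.240 CPM in Synapsin-cre tumours, 0, 0.0261 and 0.174 CPM in NG2-creERTM, and 0.470, 0.222 and 1.88 CPM in Nestin-creERT2 tumours. Oprm1, the mu receptor, peaked at 5.44 CPM, in Synapsin-cre replicate 1, and was at most 0.476 CPM elsewhere. Oprk1, the kappa receptor, had 6.01 CPM in Synapsin-cre replicate 1 and at most 1.79 CPM in the other libraries.

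The genes that process and store peptides were also lower in NG2-creERTM than in Nestin-creERT2 tumours: 14 of 16 were negative (median -1.96), and 10 were lower without overlap, against 14.2% of all genes tested. For Synapsin-cre minus Nestin-creERT2 9 of 16 were negative with a median of -0.07, and 15 of 16 with a median of -1.37 without Synapsin-cre replicate 1. Cpe, the carboxypeptidase that trims peptides, had 1599, 670.3 and 234 CPM in Synapsin-cre tumours, 426, 447 and 939 CPM in NG2-creERTM, and 915, 1092 and 1191 CPM in Nestin-creERT2 tumours, so that NG2-creERTM replicate 3 overlapped with Nestin-creERT2. Scg2, a granule protein, had 408, 23.1 and 84.2 CPM in Synapsin-cre tumours, 3.38, 4.16 and 127 CPM in NG2-creERTM, and 449.8, 493 and 115 CPM in Nestin-creERT2 tumours. NG2-creERTM replicate 3, the NG2-creERTM library with the highest precursor sum, was thus also the highest of its model for both. Chgb, a granule matrix protein, fell by 3.07 ± 0.44 on the log2 scale in NG2-creERTM tumours in the fit of those 2 models alone (SE, n = 3 each, edgeR adjusted p 0.0388). Pcsk2, a convertase that takes part in making enkephalins, fell by 3.86 ± 0.62 in Synapsin-cre replicates 2 and 3 against the Nestin-creERT2 libraries (SE, n = 2 and 3, edgeR adjusted p 0.0348). Its levels were 147, 5.49 and 2.16 CPM in Synapsin-cre and 44.3, 38.2 and 85.0 CPM in Nestin-creERT2 tumours. Replicate 1, left out of that fit, was thus the highest library, so the call describes replicates 2 and 3 and not the model.

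Other neuropeptide precursors did not have this order as a group. Of 39 genes found 21 were tested, 13 were negative for NG2-creERTM minus Nestin-creERT2 with a median of -0.67, and 3 were lower without overlap (14.3%), near the 14.2% of all genes tested. Apln, whose peptide apelin acts on vessels, had 13.0, 49.8 and 59.2 CPM in Synapsin-cre tumours, 133, 104 and 35.9 CPM in NG2-creERTM, and 55.8, 28.8 and 20.4 CPM in Nestin-creERT2 tumours. Adm, the vasodilator adrenomedullin, had 8.04, 28.1 and 62.0 CPM in Synapsin-cre tumours, 55.5, 17.0 and 12.2 CPM in NG2-creERTM, and 18.3, 5.29 and 8.14 CPM in Nestin-creERT2 tumours. These 2 were the most abundant genes of that list, both are made outside neurons too, and Synapsin-cre replicate 1 was the lowest of its model for both. Pnoc, the nociceptin precursor and a relative of Penk and Pdyn, had 5.66, 0.0827 and 0 CPM in Synapsin-cre tumours, 0.150, 0.0261 and 0.174 CPM in NG2-creERTM, and 7.60, 3.18 and 3.59 CPM in Nestin-creERT2 tumours. NG2-creERTM and Nestin-creERT2 levels did not overlap, and it fell by 5.32 ± 0.81 on the log2 scale in NG2-creERTM tumours in the fit of NG2-creERTM and Nestin-creERT2 alone (SE, n = 3 each, edgeR adjusted p 0.0397).

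Peptide binding and breakdown, CREB and REST genes did not share the order as groups. For NG2-creERTM minus Nestin-creERT2 4 of 10 binding and breakdown genes were negative (median 0.22), with Ece1 at 53.6 to 129 CPM in NG2-creERTM and 50.7 to 96.5 CPM in Nestin-creERT2 tumours. Prep was at 49.5 to 132 CPM in NG2-creERTM and 70.4 to 83.6 CPM in Nestin-creERT2 tumours. Of the 10 CREB and activity genes 4 were negative (median 0.06). In NG2-creERTM tumours 3 of them were higher without overlap (11% of all genes tested) and 2 lower (14.2%). Fos, an immediate early gene, had 56.3, 462 and 437 CPM in Synapsin-cre tumours, 139, 262 and 188 CPM in NG2-creERTM, and 107, 22.0 and 24.9 CPM in Nestin-creERT2 tumours, higher in NG2-creERTM without overlap. Nr4a1 was higher there without overlap as well, with 374, 153 and 257 CPM in NG2-creERTM and 54.9, 33.3 and 102 CPM in Nestin-creERT2 tumours. The third was Creb1, which encodes CREB itself. Bdnf, a neurotrophin, was lower without overlap, with 1.74, 0.340 and 3.32 CPM in NG2-creERTM and 29.5, 39.0 and 12.1 CPM in Nestin-creERT2 tumours. So was Npas4, an early gene of active neurons, with 0.929, 0.0784 and 1.76 CPM in NG2-creERTM and 2.55, 8.53 and 2.4997 CPM in Nestin-creERT2 tumours. Of the 8 genes of the REST complex, which silences neuronal genes in other cells, 1 was negative (median 0.21). Ehmt2 had 200 to 333 CPM in NG2-creERTM and 233 to 261 CPM in Nestin-creERT2 tumours, and Hdac2 had 220.4 to 252 CPM in NG2-creERTM and 171 to 242 CPM in Nestin-creERT2 tumours. Rest itself had 15.2, 58.8 and 52.4 CPM in Synapsin-cre tumours, 54.3, 53.4 and 43.4 CPM in NG2-creERTM, and 39.5, 36.1 and 32.5 CPM in Nestin-creERT2 tumours, higher in NG2-creERTM than in Nestin-creERT2 without overlap. Hdac1, a deacetylase of that complex, rose by 1.33 ± 0.25 on the log2 scale in NG2-creERTM tumours in the fit of those 2 models alone (SE, n = 3 each, edgeR adjusted p 0.0485).

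Glial and cycling cells were read in the same way. Astrocyte markers summed to 309 to 8049 CPM in Synapsin-cre, 1274 to 3591 CPM in NG2-creERTM and 4456 to 6553 CPM in Nestin-creERT2 tumours, and 7 of 8 were negative for NG2-creERTM minus Nestin-creERT2. Gfap, their filament protein, was at 312 to 2015 CPM in NG2-creERTM and 1391 to 3093 CPM in Nestin-creERT2 tumours, and Slc1a2, their glutamate transporter, at 60.9 to 146 CPM in NG2-creERTM and 791 to 1213 CPM in Nestin-creERT2 tumours. Oligodendrocyte precursor markers summed to 512 to 3061 CPM in Synapsin-cre, 2738 to 5932 CPM in NG2-creERTM and 1532 to 5907 CPM in Nestin-creERT2 tumours. Pdgfra, the growth factor receptor of these cells, had 623 to 1809 CPM in NG2-creERTM and 313 to 2022 CPM in Nestin-creERT2 tumours, and Olig1 had 687 to 1605 CPM in NG2-creERTM and 830.4 to 2064 CPM in Nestin-creERT2 tumours. Proliferation markers summed to 94.0 to 2353 CPM in Synapsin-cre, 1586 to 2160 CPM in NG2-creERTM and 1058 to 1585 CPM in Nestin-creERT2 tumours. All 8 were positive for NG2-creERTM minus Nestin-creERT2 (median 0.77), and 5 were higher without overlap, against 11% of all genes tested. Top2a had 515 to 878 CPM in NG2-creERTM and 310 to 589 CPM in Nestin-creERT2 tumours, and Mki67 had 472 to 622 CPM in NG2-creERTM and 347 to 589 CPM in Nestin-creERT2 tumours. Their part in the precursor levels was not tested.

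The genes most like the precursors were sought among 12797 protein-coding genes by the root mean square difference of centred log2 CPM, given here as a description. The nearest was Dcx for Cartpt, at 0.24 over 9 libraries and 0.25 over the 8 without Synapsin-cre replicate 1. Dcx encodes a microtubule protein of migrating young neurons. Gjb2, a connexin, was nearest to Npy at 0.43 and 0.30. Tenm2, a teneurin, was nearest to Pdyn at 0.61 and 0.36. Jph3, a junctophilin, was nearest to Penk, but at 1.07 and 1.08, the largest of the 9 distances over either set of libraries. For Vip, Sst, Crh and Tac1 the nearest genes over 9 libraries were Nrsn1 at 0.80, Hpca at 0.88, Gabrg1 at 0.78 and Slc8a2 at 0.95. Without Synapsin-cre replicate 1 they were Diras2 at 0.70, Ckmt1 at 0.72, Slc4a4 at 0.68 and Phyhip at 0.91.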

How the data were processed

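The deposited values are counts per gene, 1 file for each of 9 libraries of total RNA per the labels. The submitters' processing notes name STAR, HTSeq and the build mm10; versions, read layout and annotation release are not given in the sources used here. The files have an unstranded column and one per strand. The last column was used. Of reads in genes 3.25 to 3.64% were on the opposite strand, where the 9 precursor genes had 55 counts in all, against 34961. Lines that name no gene were left out, and the reads counted on them made up 17.9 to 27.3% of a library. This share was 25.1 to 27.3% in Synapsin-cre, 17.9 to 20.8% in NG2-creERTM and 18.0 to 24.0% in Nestin-creERT2 libraries. Of 46517 identifiers 46005 matched GENCODE vM21 on GRCm38, which gave symbols, coordinates and exon lengths. Libraries were grouped by the model in the labels, and replicates were numbered in the order of deposit.

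After filterByExpr and TMM scaling, 17947 genes entered a 2-sided quasi-likelihood test in edgeR 4.0.16 (under R 4.3.3). All 9 libraries were fitted together, p-values were adjusted by Benjamini-Hochberg over these genes, and the threshold was 0.05. CPM were computed from the deposited counts. Alternatives were other size factors and filters, limma 3.58.1 voom, DESeq2 1.42.0, unstranded counts, fits of 2 models, and leaving out each library. On simulated data with 200 changed genes edgeR recovered 63% of genes changed 16-fold and 10% of those changed 4-fold for NG2-creERTM minus Nestin-creERT2, with 3 false calls, and 79 of 202 DESeq2 calls were false. The common biological coefficient of variation was 0.612. Promoters are from RefSeq.

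The members and the gene lists were chosen with earlier results of these data known. Named genes are the 9 precursors, the opioid receptors, the 2 members of each list with the highest mean CPM, list members past the threshold, and the genes nearest in pattern. List members past the threshold in another fit, and Avp, Oxt, Rest, Creb1, Bdnf and Npas4, were picked after their values were seen. Values of some genes that the naming rule selects are not reported here.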

Additional observations from a re-analysis of the deposited data

How the results depend on the processing

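Of 470 values of the precursor genes under the alternatives, 442 kept the direction and the side of the threshold, 4 passed it where the fit of all 9 libraries did not, and 24 changed sign, all 24 in comparisons with Synapsin-cre tumours. For NG2-creERTM minus Nestin-creERT2 no precursor changed sign under any alternative run. DESeq2 gave Penk no adjusted p in any comparison, so its 3 DESeq2 values count here by direction alone. When each library was left out the log2 fold changes of NG2-creERTM minus Nestin-creERT2 ran from -8.01 to -5.62 for Penk, -5.63 to -1.62 for Vip, -6.45 to -3.04 for Cck and -4.29 to -1.26 for Tac1. The numbers of genes called by edgeR for this comparison were 12 with no filter, 237 in the fit of 2 models and 0 to 124 when each library was left out, and DESeq2 called 623. Of the 9 precursors described here 1 was called in the fit of 2 models and 0 to 1 when each library was left out. For Synapsin-cre minus Nestin-creERT2 the genes called were 12 with no filter, 1 with unstranded counts, 5 in the fit of 2 models, 431 in that fit without Synapsin-cre replicate 1, 0 to 273 when each library was left out and 497 by DESeq2. Without Synapsin-cre replicate 1 the fit of 2 models called 2 of the 9 precursors. For Synapsin-cre minus NG2-creERTM the genes called were 446 by DESeq2, 1 in the fit of 2 models without Synapsin-cre replicate 1, and 0 to 1 when each library was left out. Log2 fold changes for Synapsin-cre minus Nestin-creERT2 were -3.20 for Vip and -4.80 for Cck by limma voom, and -6.98 for Vip and -6.93 for Cck in the fit of 2 models without Synapsin-cre replicate 1. When each library was left out they ran from -4.57 to 0.30 for Penk, -0.69 to 0.16 for Npy, -6.98 to 2.32 for Vip and -6.93 to 1.27 for Cck. For Synapsin-cre minus NG2-creERTM they were -0.73 for Sst and -0.021 for Cck by limma voom, and -2.21 for Sst, -2.98 for Cck and -0.74 for Cartpt in the fit of 2 models without Synapsin-cre replicate 1. Pdyn and Vip were not tested in that fit. When each library was left out they ran from -3.08 to 1.44 for Pdyn, -2.17 to 2.30 for Sst, -4.39 to 7.06 for Vip, -2.93 to 6.74 for Cck and -0.69 to 2.94 for Cartpt. Fewer libraries entered these fits, and other causes were not tested. No paired analysis was possible because the labels give no replicate numbers. Precursor levels below 0.0714 CPM rest on fewer than 3 counts in any library.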
